A study of Homo sapiens with 6 samples.

Results

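Very long protein-coding genes were taken from a count table of Kelly, a MYCN-amplified neuroblastoma cell line of human origin. A gene entered the set when its span in the table was at least 500 kb, its symbol belonged to none of the cadherin, collagen, channel, receptor, semaphorin, contactin and similar families that the rule leaves out, and it was not placed on chromosome Y. The set held 259 of the 19923 genes in the table, and 58 further genes of that length belonged to the excluded families. DHRSX was left out because the table places it on both sex chromosomes. Its listed length of 566600 bases is the sum of 2 copies of 283300 bases each. The shortest member was AFF2 with 500047 bases, and the longest gene just under the threshold was DIAPH3 with 498346 bases.

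The study compared 3 libraries of cells transfected with a control siRNA (siControl) and 3 libraries of cells transfected with an siRNA against METTL3 (siMETTL3), 72 hours after transfection. Both groups were labelled WT in genotype and differed in the siRNA alone. METTL3 is the catalytic subunit of the enzyme complex that places N6-methyladenosine on mRNA. The labels do not say whether libraries of a group came from separate cultures, so p-values measure the spread between these libraries, and a single line with siRNA transfection cannot tell effects of METTL3 from other effects of that siRNA.

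Genes of this length consist almost entirely of introns. RNA polymerase needs hours to cross them, and long genes are common among genes for synapses, cell adhesion and signalling in neurons. Several of them lie at common fragile sites, chromosome regions that tend to break when replication is slowed. In this table reads were counted over the whole gene span, so a count joins reads of spliced mRNA and reads of unspliced RNA. The median span of the set was 715532 bases, against 27292 bases for all genes of the table, and 53 members spanned at least 1 Mb. The longest was RBFOX1 with 2473539 bases. In the canonical transcripts of GENCODE release 44, found for 252 members, exons made up a median of 0.862% of the span, against 11.02% over all genes. The longest intron had a median of 192 kb, against 7.71 kb over all genes. FHIT, a diadenosine triphosphate hydrolase gene of 1504183 bases, had a coding sequence of 441 bases.

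The bases in front of the gene start are shown for the member with the largest rise and for the 2 with the largest falls under the naming rule, as examples of start regions. Each is the 250 bases before the start that the count table gives, read 5′ to 3′ on the strand of the gene from GRCh38, with CG dinucleotides in capitals. SORCS2 (chr4:7192288-7192537, plus strand) rose, and PTPRK (chr6:128520675-128520924, minus strand) and CREB5 (chr7:28299071-28299320, plus strand) fell.
SORCS2: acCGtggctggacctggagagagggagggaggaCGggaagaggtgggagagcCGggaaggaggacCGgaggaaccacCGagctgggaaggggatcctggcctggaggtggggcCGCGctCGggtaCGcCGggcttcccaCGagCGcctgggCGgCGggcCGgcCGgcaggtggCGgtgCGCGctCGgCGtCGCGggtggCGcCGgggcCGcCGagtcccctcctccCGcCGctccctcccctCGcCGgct
PTPRK: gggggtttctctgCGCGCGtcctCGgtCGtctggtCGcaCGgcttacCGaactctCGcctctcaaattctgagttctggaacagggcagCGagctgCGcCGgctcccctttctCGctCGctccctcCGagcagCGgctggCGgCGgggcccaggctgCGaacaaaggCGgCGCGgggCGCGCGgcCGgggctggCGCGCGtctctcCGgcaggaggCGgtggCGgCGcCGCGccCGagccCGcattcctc
CREB5: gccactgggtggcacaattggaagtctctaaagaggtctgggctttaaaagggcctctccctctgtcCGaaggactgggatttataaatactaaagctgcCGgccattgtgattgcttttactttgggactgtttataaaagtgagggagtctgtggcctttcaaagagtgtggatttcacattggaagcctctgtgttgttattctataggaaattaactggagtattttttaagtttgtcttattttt
SORCS2 held 31 CG dinucleotides in this window and PTPRK held 37, while CREB5 held 2. These windows are examples and stand for no direction. The median ratio of observed to expected CG was 0.783 in the members that were higher in siMETTL3, 0.699 in those that were lower, 0.673 in those past no threshold, and 0.666 over all genes of the table. The motif TATAAA, searched on both strands, was present in the windows of 4 of 60 higher members and 6 of 49 lower members, against 9.83% of all windows. The motif CACGTG, likewise searched on both strands, was present in 1 higher and 3 lower members, against 7.11% of all windows. The table gives the outermost start of a gene, and the start used in Kelly cells was not measured.

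Total counts ranged from 15430000 to 21565013 per library. METTL3 had 54.2 ± 1.80 CPM (SD, n = 3) in siControl and 33.04 ± 1.27 CPM (SD, n = 3) in siMETTL3, with no overlap between the groups (edgeR log2 fold change -0.71, SE 0.070, quasi-likelihood test, FDR 4.68e-06). CPM is the read count per 1000000 reads of the TMM-scaled library, and FDR is the Benjamini-Hochberg adjusted p over 15311 tested genes, called at 0.05. The 7 sympathetic neuroblast markers PHOX2A, HAND2, GATA3, TH, DBH, CHGA and STMN2 were present, with a summed level of 3195 to 3430.3 CPM in siControl and 4202 to 4547 CPM in siMETTL3. Of these, HAND2, GATA3, TH, DBH and CHGA rose, STMN2 fell from 271 ± 2.16 to 191 ± 4.99 CPM (edgeR log2 fold change -0.50, FDR 8.36e-06), and PHOX2A was at -0.10 (edgeR FDR 0.311). The part of this difference in the results on very long genes was not tested. The 6 fibroblast and stromal markers summed to between 111 and 131 CPM in siControl and to between 114 and 120 CPM in siMETTL3, most of it from PDGFRB, with COL1A1, COL3A1, DCN and LUM between 0.0324 and 5.26 CPM in either group. The 4 blood markers summed to at most 2.97 CPM in every library. In bulk RNA, fewer cells of a type and less RNA per cell cannot be told apart.

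In each library the very long genes took between 3.67% and 4.26% of all counts. The shares were 3.72%, 3.67% and 4.26% in siControl replicates 1, 2 and 3, and 4.21%, 4.03% and 4.01% in siMETTL3 replicates 1, 2 and 3. The highest share belonged to siControl replicate 3, so the groups overlapped. The mean share was 3.88% ± 0.331 (SD, n = 3) in siControl and 4.08% ± 0.107 (SD, n = 3) in siMETTL3 (two-sided exact permutation test, p = 0.4, where 0.1 is the smallest p that 3 against 3 libraries allow). All 259 members had at least 2 counts in every library, and 258 passed the filter on low counts (99.6%, against 76.9% of all genes). The gene that did not pass was SLC24A3, a sodium, calcium and potassium exchanger.

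Passing that filter does not show that a gene of this length was transcribed above background. The 383 olfactory receptor genes, which neuroblastoma cells are not known to use, held 0.893 CPM per 100 kb when counts and spans were summed over them. Taken library by library, with CPM from total counts without TMM scaling, the level was uneven. It was 1.20 CPM per 100 kb in siControl replicate 3 and between 0.778 and 0.875 in the other libraries. Of the 258 tested members, 55 lay at or below the pooled level of 0.893 CPM per 100 kb and 203 above it. Among the 55, 3 were past the test threshold, beside 37.8% of all tested genes. ALDH1A2, a retinaldehyde dehydrogenase, and CPQ, a peptidase, were higher in siMETTL3, and DACH2, a transcription cofactor, was lower. Of the 203 members above the level, 58 were higher and 48 were lower, beside 18.6% and 19.2% of all tested genes. The cut took out members with few reads for their length, and no like cut was made over all tested genes. The highest level per length was that of FAM155A, an auxiliary subunit of the NALCN sodium leak channel, with 240.5 CPM per 100 kb. It was followed by KIF26B with 189, NBEA with 130.2 and GSE1 with 121 CPM per 100 kb. At the low end, CSMD3 had 0.0830 and KHDRBS2 had 0.0937 CPM per 100 kb. FAM155A differed by less than the test could call (edgeR log2 fold change -0.12, SE 0.16, FDR 0.611).

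**Figure D1:**
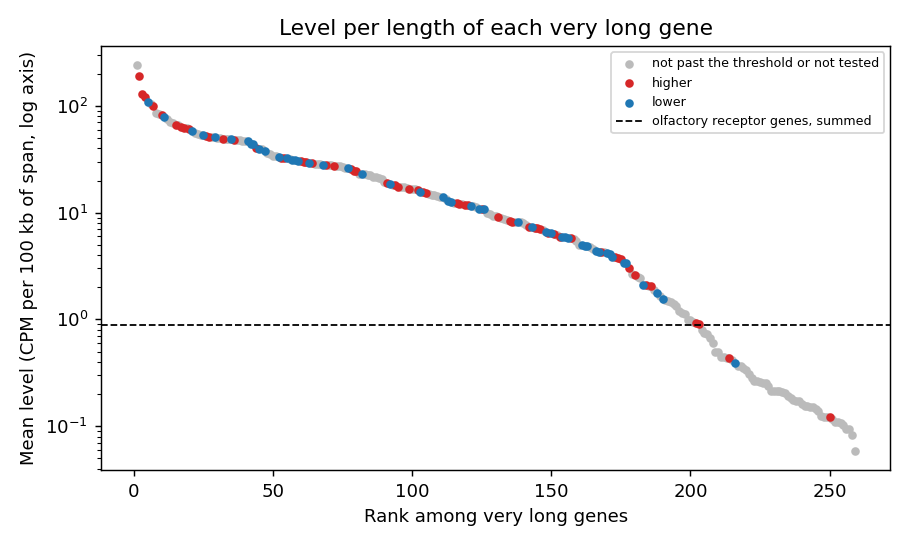
Mean level over the 6 libraries in CPM per 100 kb of gene span (vertical, log axis) for the 259 very long genes in order of that level (horizontal, rank). Red and blue points are genes higher or lower in siMETTL3 at an FDR under 0.05, grey points are the rest, and the dashed line is the summed level of the olfactory receptor genes, 0.893 CPM per 100 kb. The called genes spread over the ranks above the line, and 3 lie under it.

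Very long genes lay on both sides of the control level in siMETTL3 cells. Of the 258 tested members 60 were higher and 49 were lower in siMETTL3 in edgeR's quasi-likelihood test (23.3% and 19.0%), beside 18.6% and 19.2% of all tested genes. Together 42.2% were called, beside 37.8% of all tested genes, so the share of calls lay near that of the whole table. At least 2-fold higher were 7 members (2.71%, beside 2.74% of all tested genes), and at least 2-fold lower was 1 member (0.388%, beside 0.607% of all tested genes). The groups did not overlap in 48.1% of the members, beside 49.9% of all tested genes. The median log2 fold change was 0.014 over the members and -0.0021 over all tested genes. Among the called members, the median log2 fold change was 0.49 in the 60 higher and -0.44 in the 49 lower.

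**Figure D2:**
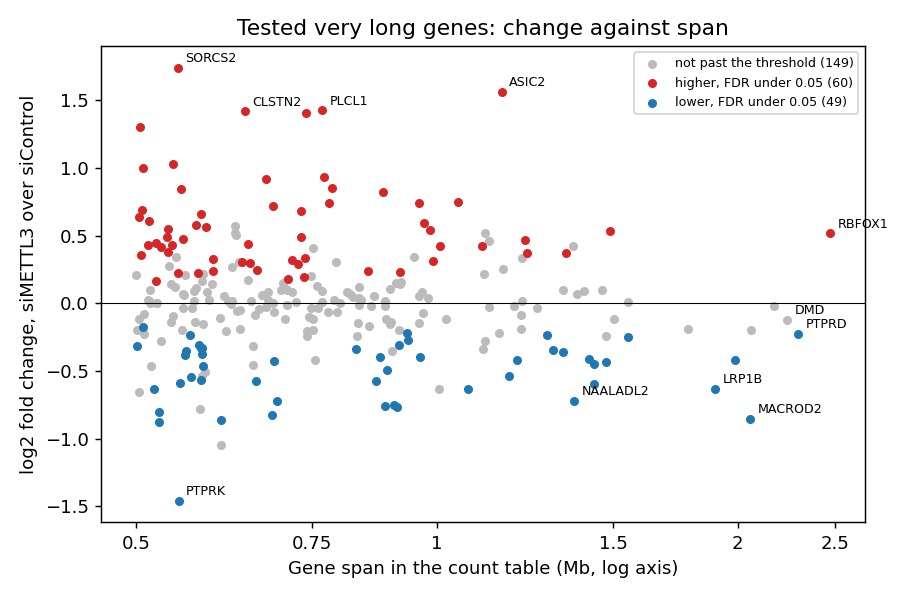
The log2 fold change of siMETTL3 over siControl (vertical) against the gene span in Mb (horizontal, log axis) for the 258 tested very long genes. Red points are the 60 genes higher and blue points the 49 genes lower at an FDR under 0.05, and grey points are the 149 others. Higher and lower genes occur along the whole range of spans, with SORCS2 and ASIC2 at the top and PTPRK at the bottom.

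The siControl libraries were not alike over these genes, which touches every count that follows. siControl replicate 3, the library with the fewest counts, was the highest of the 3 siControl libraries in 203 of the 258 tested members (78.7%), against 37.6% of all tested genes. It was the highest of all 6 libraries in 131 members. Its median log2 difference from the mean of siControl replicates 1 and 2 was 0.032 in genes under 10 kb and -0.045 in genes of 25 to 50 kb. The difference then grew with span: 0.12 in genes of 300 to 500 kb, 0.18 in members of 500 to 750 kb, 0.20 in members of 750 to 1000 kb and 0.32 in members of at least 1000 kb. In 48 of the 49 lower members it was the highest siControl library, as it was in 53.6% of all lower genes. In 33 of the 60 higher members it was likewise the highest siControl library, against 21.1% of all higher genes. Why this library differed was not tested.

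Without siControl replicate 3 the picture of the set changed in one direction. The number of higher members went from 60 to 87 and the number of lower members stayed at 49, with 59 of the 60 and 48 of the 49 called again. In that fit 33.7% of the members were higher and 19.0% lower, beside 19.8% and 20.7% of all tested genes. Genes of 300 to 500 kb had 34.1% higher and 16.4% lower in the same fit, at a median log2 fold change of 0.10. The median log2 fold change of the members went from 0.014 to 0.090, while that of all tested genes was -8.03e-05. The falls were therefore called with and without that library, and their sizes were smaller without it: MACROD2 went from -0.85 to -0.69, FGF13 from -0.86 to -0.69 and LRP1B from -0.63 to -0.41 on the log2 scale.

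**Figure D3:**
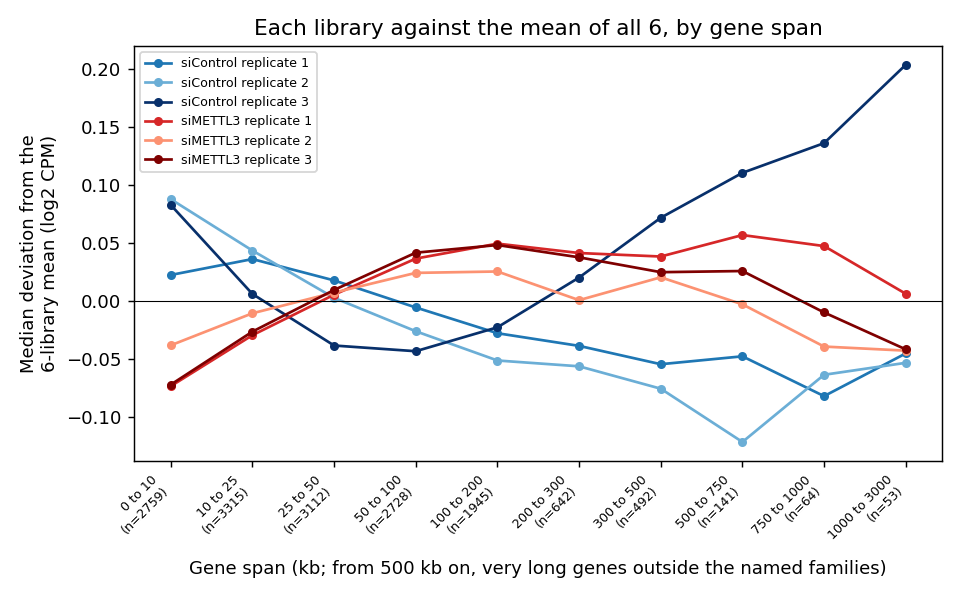
Median deviation of each library from the mean log2 CPM of the 6 libraries (vertical), for genes in 10 classes of span (horizontal, number of genes in brackets); from 500 kb on, the classes hold very long genes outside the excluded families. siControl replicate 3 rises from -0.043 in genes of 50 to 100 kb to 0.20 in genes of at least 1000 kb, where the other libraries lie between -0.053 and 0.0062.

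By span, 40 of 141 members of 500 to 750 kb were higher and 22 were lower (28.4% and 15.6%). Over all tested genes these shares were 18.6% and 19.2%. Of the 64 members of 750 to 1000 kb, 11 were higher and 11 were lower (17.2% each). Of the 53 members of at least 1000 kb, 9 were higher and 16 were lower (17.0% and 30.2%). The median log2 fold changes of these classes were 0.028, 0.013 and -0.12. Without siControl replicate 3 the class of at least 1000 kb had 17 higher and 16 lower members and a median of 0.033, so its lean to lower values was not seen without that library. The class of 750 to 1000 kb then had 21 higher and 12 lower members. In that fit 19.8% of all tested genes were higher and 20.7% lower. Across the 258 members, span and log2 fold change had a Spearman correlation of -0.11, a description over genes that share the same 6 libraries.

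Among the 8 longest tested members the directions were mixed. RBFOX1, a neuronal splicing regulator (chromosome 16, 5239802 to 7713340), rose. It measured 220.3, 209 and 290.3 CPM in siControl replicates 1 to 3 and 366, 345 and 316 CPM in siMETTL3 replicates 1 to 3, so that even the highest siControl library lay under the lowest siMETTL3 library (edgeR log2 fold change 0.52, SE 0.12, FDR 0.00710). Without siControl replicate 1 it was not called (edgeR log2 fold change 0.46, FDR 0.0577). MACROD2, which encodes an ADP-ribose hydrolase (chromosome 20, 13995369 to 16053197), had 186, 199 and 265 CPM in siControl and 122, 119 and 118 CPM in siMETTL3. All siMETTL3 libraries lay below all siControl libraries (edgeR log2 fold change -0.85, SE 0.12, FDR 0.000440). EYS, a photoreceptor matrix protein gene, and LRP1B, a lipoprotein receptor gene, fell by 0.42 and 0.63 on the log2 scale (edgeR FDR 0.000421 and 0.0105). PTPRD, a receptor tyrosine phosphatase with 5736 coding bases in a span of 2298478, fell from 147.5 ± 11.9 to 126 ± 5.68 CPM (SD, n = 3, edgeR log2 fold change -0.22, FDR 0.0158). Leaving out siMETTL3 replicate 2 or 3 took it over the threshold, to an edgeR FDR of 0.0835 and 0.0628. DMD, the dystrophin gene, had 27.1 ± 1.37 CPM in siControl and 24.9 ± 2.61 CPM in siMETTL3 (edgeR log2 fold change -0.12, FDR 0.340). CSMD1 and DLG2, which encode a complement-regulating membrane protein and a postsynaptic scaffold, had log2 fold changes of -0.19 and -0.018 (edgeR FDR 0.198 and 0.880), and the sign for DLG2 turned to 0.0055 under scaling by total counts.

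**Figure D4:**
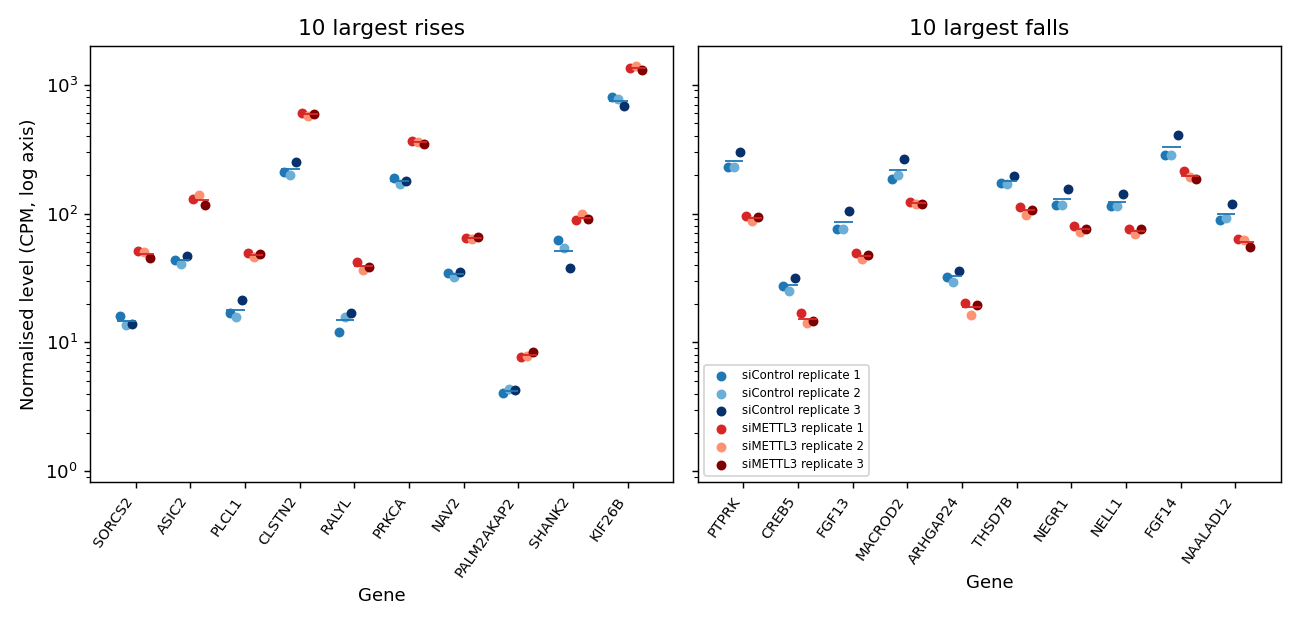
Normalised level in CPM (vertical, log axis) in each of the 6 libraries for the 10 largest rises (left) and the 10 largest falls (right) among called very long genes whose mean log2 CPM was 2 or more and whose groups lay apart; points are libraries and short lines are group means. The siMETTL3 points lie apart from the siControl points in every gene, and siControl replicate 3 is the highest point of all 10 falls.

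Surface proteins that hold cells together or organise synapses formed a list of 50 tested members, of which 8 were higher and 13 were lower (42% called, beside 37.8% of all tested genes, median log2 fold change -0.097, and 0.040 without siControl replicate 3). SORCS2, a sorting receptor that works with neurotrophin receptors (chromosome 4, 7192538 to 7742836), made the largest rise. Its levels were 16.1, 13.7 and 13.8 CPM in siControl and 50.7, 50.7 and 44.8 CPM in siMETTL3 (edgeR log2 fold change 1.74, SE 0.093, FDR 2.06e-08). The related genes SORCS1 and SORCS3 had log2 fold changes of 0.024 and 0.27 (edgeR FDR 0.809 and 0.600). CLSTN2, a synaptic calsyntenin gene (chromosome 3, 139935185 to 140577397), measured 211, 199 and 249 CPM in siControl and 605, 566 and 588 CPM in siMETTL3. Every siMETTL3 library was thus more than 300 CPM above the highest siControl library (edgeR log2 fold change 1.42, SE 0.077, FDR 2.72e-08). THSD7B, a thrombospondin repeat protein gene, fell, with 172, 171 and 197 CPM in siControl against 112, 98.2 and 106 CPM in siMETTL3 (edgeR log2 fold change -0.77, FDR 2.97e-06).

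NEGR1 and LSAMP, GPI-anchored neuronal cell adhesion genes of the same family, had log2 fold changes of -0.76 and -0.36 (edgeR FDR 0.000233 and 0.0207), while their relatives OPCML and NTM were at 0.52 and 0.086 without passing the test (FDR 0.112 and 0.663). NELL1, a secreted ligand of ROBO receptors, fell by 0.75 on the log2 scale. The teneurins, transmembrane proteins that guide synaptic partner choice, went different ways: TENM3 fell from 464 ± 59.4 to 311 ± 10.4 CPM (edgeR log2 fold change -0.58, FDR 0.000105), TENM1 rose from 28.3 ± 1.56 to 41.7 ± 1.56 CPM (0.56, edgeR FDR 8.35e-05), and TENM2 and TENM4 had log2 fold changes of 0.042 and 0.024 (edgeR FDR 0.726 and 0.771). DPP6, an auxiliary subunit of potassium channels, and KIRREL3, an adhesion protein of synapses, rose by 0.43 and 0.66 on the log2 scale.

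Signalling genes had 13 higher and 12 lower members among 56 tested (44.6% called, against the same 37.8%, median log2 fold change 0.074). Without siControl replicate 3 there were 21 higher and 12 lower, in a fit with 19.8% of all tested genes higher and 20.7% lower. PTPRK, a receptor tyrosine phosphatase that acts at cell contacts (chromosome 6, 127968779 to 128520674, minus strand), made the largest fall of the set. It measured 229, 231 and 303 CPM in siControl and 96.0, 87.0 and 94.4 CPM in siMETTL3, so that the highest siMETTL3 library had less than 100 CPM (edgeR log2 fold change -1.46, SE 0.10, FDR 2.36e-06, and -1.31 without siControl replicate 3). Of the other receptor phosphatases in the set, PTPRN2 and PTPRG rose by 0.75 and 0.20 on the log2 scale (edgeR FDR 0.000192 and 0.0171), and PTPRM and PTPRT had log2 fold changes of 0.022 and -0.28 (FDR 0.808 and 0.528).

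PRKCA and PRKCE, protein kinase C genes that respond to diacylglycerol, rose together. PRKCA (chromosome 17, 66302613 to 66810743) had 189, 171 and 177 CPM in siControl and 366, 358 and 348 CPM in siMETTL3 (edgeR log2 fold change 1.00, SE 0.058, FDR 4.05e-08). PRKCE rose from 370.3 ± 9.08 to 519 ± 14.2 CPM (edgeR log2 fold change 0.49, FDR 1.48e-05). PLCL1, a catalytically inactive relative of phospholipase C, rose from 16.9, 15.8 and 21.3 CPM in siControl to 49.7, 45.7 and 48.5 CPM in siMETTL3 (edgeR log2 fold change 1.43, SE 0.10, FDR 2.86e-07). The active phospholipase gene PLCB1 fell by 0.49 on the log2 scale (edgeR FDR 0.00515).

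The cyclic nucleotide phosphodiesterases PDE4B and PDE4D, which break down cAMP, fell by 0.33 and 0.25 on the log2 scale (edgeR FDR 0.0229 and 0.0118). PDE10A rose by 0.25 (edgeR FDR 0.00342). The intracellular fibroblast growth factor homologues, which bind sodium channels, fell where they were well expressed. FGF13 had 76.2, 75.4 and 105 CPM in siControl and 49.0, 44.3 and 47.5 CPM in siMETTL3 (edgeR log2 fold change -0.86, FDR 0.000339). FGF14 had a log2 fold change of -0.72 (edgeR FDR 0.00698), and FGF12, at a mean of 1.34 CPM, one of 0.52 (FDR 0.226). ARHGAP24 and DLC1, which switch off small GTPases, fell by 0.80 and 0.64 on the log2 scale (edgeR FDR 5.69e-05 and 2.69e-05). KALRN, an activator of these GTPases, rose by 0.44 on the log2 scale (edgeR FDR 3.54e-05).

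Scaffold, junction and cytoskeleton genes numbered 58 tested members, with 16 higher and 8 lower. The median log2 fold change was 0.064, and 41.4% were called, beside 37.8% of all tested genes. Without siControl replicate 3 the list had 24 higher and 8 lower, in a fit that called 40.5% of all tested genes. KIF26B, a kinesin family gene (chromosome 1, 245154985 to 245709432), had 795, 771 and 683 CPM in siControl and 1336, 1400.4 and 1295 CPM in siMETTL3. The groups were far apart (edgeR log2 fold change 0.84, SE 0.066, FDR 7.25e-07). NAV2, a neuron navigator gene, rose from 34.8, 31.9 and 35.2 CPM in siControl to 65.0, 63.8 and 65.8 CPM in siMETTL3 (edgeR log2 fold change 0.93, FDR 3.33e-07).

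ERC2 and ERC1, which encode related proteins that bind RIM proteins, rose, with log2 fold changes of 0.74 and 0.35 (edgeR FDR 1.25e-06 and 0.000241). SHANK2, a scaffold of the postsynaptic density, had 62.1, 53.8 and 37.9 CPM in siControl and 88.7, 98.8 and 91.0 CPM in siMETTL3 (edgeR log2 fold change 0.85, SE 0.16, FDR 0.00491). Here siControl replicate 3 was the lowest library, and SHANK2 was not past the threshold once a smooth trend of each library on span was taken out (log2 fold change 0.83, FDR 0.0606). PALM2AKAP2, a fusion locus for an A-kinase anchor, rose by 0.92 on the log2 scale, from 4.23 ± 0.138 to 7.98 ± 0.356 CPM (SD, n = 3), and its mean over the 6 libraries, 0.906 CPM per 100 kb, lay close to the olfactory receptor level. The cell junction scaffolds MAGI2 and PARD3B fell by 0.60 and 0.63 on the log2 scale (edgeR FDR 0.0235 and 0.00353), while MAGI1 stood at 0.0022 (FDR 0.983). UTRN, which encodes the dystrophin relative utrophin, fell by 0.54 on the log2 scale (edgeR FDR 0.000213).

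Regulators of transcription, chromatin and RNA had 11 higher and 8 lower members among 36 tested (52.8% called, beside 37.8% of all tested genes). The median log2 fold change of the list was -0.011, and 0.094 without siControl replicate 3. RALYL, an RNA-binding protein gene, rose from 11.96, 15.7 and 17.1 CPM in siControl to 42.2, 36.6 and 38.7 CPM in siMETTL3 (edgeR log2 fold change 1.40, SE 0.12, FDR 1.43e-06). CELF2, a splicing and mRNA stability factor, had 54.4 ± 1.76 CPM in siControl and 79.4 ± 1.30 CPM in siMETTL3 (edgeR log2 fold change 0.55, FDR 1.26e-05), and CAMTA1, a calmodulin-binding transcription activator, rose by the similar amount of 0.54 (edgeR FDR 1.25e-05). MYT1L, a zinc finger factor of neuronal identity, rose by 0.43 on the log2 scale (edgeR FDR 0.000140). CREB5, a CRE-binding factor, fell from 27.6, 25.3 and 31.5 CPM in siControl to 17.0, 14.2 and 14.8 CPM in siMETTL3 (edgeR log2 fold change -0.87, FDR 3.28e-05). NPAS3, a neuronal helix-loop-helix factor, fell by 0.58 on the log2 scale (edgeR FDR 0.000383).

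RBMS3, a further RNA-binding protein gene, fell by 0.45, and so did the unnamed locus AC098650.1, by 0.41. These 2 spans overlap, as do FOXP1 and AC097634.4, so their counts share reads. Over the set, 64 of 259 members overlapped another gene of the table (24.7%, against 33.1% of all genes), and 12 did so over more than 10% of their span. With overlapping genes removed, 43 of 194 members were higher and 38 were lower. That fit called 3750 of all 9518 genes tested in it.

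Channels, transporters and other membrane proteins were few, with 3 higher and 2 lower among 14 tested (35.7% called, beside 37.8% of all tested genes). Of the 3 higher genes, ASIC2 encodes a channel, while TRAPPC9 and SNX29 encode neither a channel nor a transporter. Without siControl replicate 3 the list had 6 higher and 1 lower, in a fit with 19.8% of all tested genes higher and 20.7% lower. ASIC2, an acid-sensing sodium channel gene (chromosome 17, 33013087 to 34174964, minus strand), rose in a span of 1161878 bases. It measured 43.6, 40.3 and 46.5 CPM in siControl and 129, 138 and 117 CPM in siMETTL3, so the lowest siMETTL3 library was more than 70 CPM above the highest siControl library (edgeR log2 fold change 1.56, SE 0.076, FDR 9.36e-09). TRAPPC9, a vesicle tethering subunit, rose from 86.1 ± 4.45 to 138 ± 7.12 CPM (edgeR log2 fold change 0.68, FDR 2.92e-06), and SNX29, a sorting nexin, by 0.32 on the log2 scale (edgeR FDR 0.00414).

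Enzymes of metabolism, glycans and matrix had 8 higher and 5 lower members among 31 tested (41.9% called, beside 37.8% of all tested genes). MGAT4C, a glycosyltransferase gene, rose from 19.4 ± 0.525 to 34.3 ± 2.39 CPM (edgeR log2 fold change 0.82, FDR 8.03e-06), and EGLN3, an oxygen-sensing prolyl hydroxylase, from 76.7 ± 6.94 to 99.4 ± 0.966 CPM (0.38, edgeR FDR 0.000690). NAALADL2, a peptidase-like gene (chromosome 3, 174438573 to 175810548), fell from 88.6, 91.7 and 118 CPM in siControl to 63.5, 62.1 and 55.1 CPM in siMETTL3 (edgeR log2 fold change -0.72, FDR 0.000244). Both glypicans of the set, GPC5 and GPC6, which carry heparan sulfate on the cell surface, fell, by 0.44 and 0.54 on the log2 scale (edgeR FDR 0.00823 and 0.0110). The 13 members in no role list included 1 higher and 1 lower gene, both unnamed loci that overlap other genes.

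**Figure D5:**
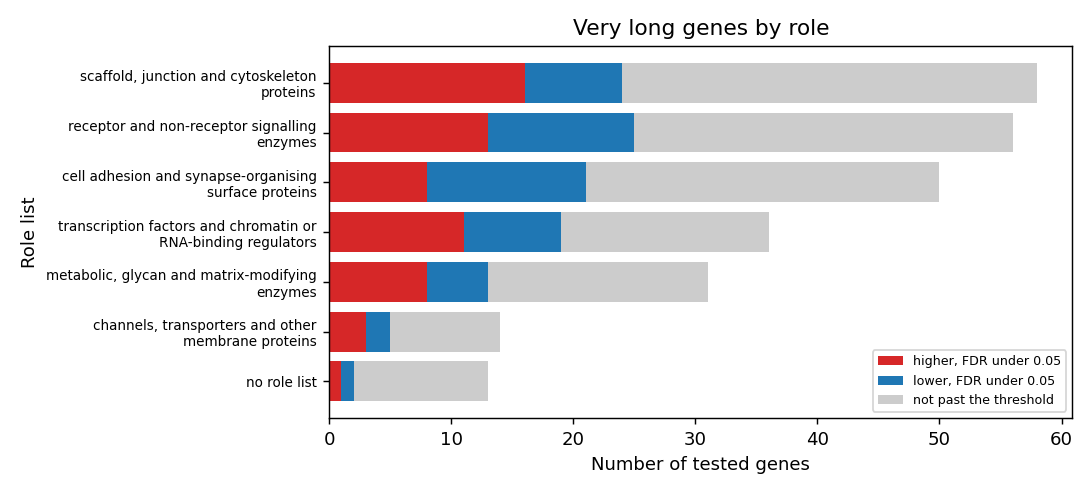
Number of tested very long genes (horizontal) in each role list (vertical), split into genes higher (red) or lower (blue) in siMETTL3 at an FDR under 0.05 and genes past no threshold (grey). Scaffold genes had 16 higher and 8 lower members, and adhesion and synapse genes 8 higher and 13 lower members.

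Of the genes listed at chromosomal fragile sites, 22 were tested members, and the listed gene THSD7A was not one. Called were 27.3% of the 22, beside 37.8% of all tested genes. NBEA, a vesicle trafficking gene, rose (edgeR log2 fold change 0.49, FDR 5.69e-05), and MACROD2, NAALADL2, PARD3B, LRP1B and LSAMP fell. The median log2 fold change of the 22 was -0.13, and 0.015 without siControl replicate 3, which gave 3 higher and 5 lower. In that fit 19.8% of all tested genes were higher and 20.7% lower. The tumour suppressor genes FHIT and WWOX were not past the threshold, at log2 fold changes of -0.12 and 0.21 (edgeR FDR 0.415 and 0.0657). Of 13 members listed because they have been studied in neuroblastoma, CAMTA1 and SHANK2 rose and TENM3, PTPRD and LSAMP fell, with the other 8 past no threshold. Called were 38.5% of the 13, near the 37.8% of all tested genes. Without siControl replicate 3 there were 5 higher and 3 lower, in a fit that called 40.5% of all tested genes.

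Factors that other work ties to the transcription of long genes were looked at as well, from a list of 30 genes that were all tested. Of these 6 were higher and 10 were lower, 53.3% called beside 37.8% of all tested genes, with a median log2 fold change of -0.035. The count of 16 went to 10 without siMETTL3 replicate 1. Calls over all tested genes fell as well, from 5786 of 15311 to 4210 of 15480 in that fit. TOP2B, the form of topoisomerase II found in neurons, fell from 266 ± 20.9 to 193 ± 12.3 CPM (edgeR log2 fold change -0.46, SE 0.068, FDR 0.000162), and TOP2A, its relative in dividing cells, fell by 0.33 on the log2 scale. TOP1 rose by 0.20 on the log2 scale. CCNK, the cyclin partner of CDK12 and CDK13, rose from 41.6 ± 6.17 to 60.3 ± 2.102 CPM (edgeR log2 fold change 0.53, FDR 0.000611).

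Compared with the 58 genes of the same length in the excluded families, the set had a median log2 fold change of 0.014 against -0.099, and 42.2% against 55.2% of tested genes called. These differences between sets of genes were not tested. Genes of 100 to 200 kb, at a median of 0.074 with 568 higher and 287 lower of 1945 tested, leaned further to higher values than the set did in the fit of all 6 libraries. With siControl replicate 3 left out the medians lay close, at 0.085 in genes of 100 to 200 kb and 0.090 in the set. In that fit 31.8% of the genes of 100 to 200 kb were higher and 14.5% lower, against 33.7% and 19.0% of the set. Genes under 10 kb had a median of -0.13, with 247 higher and 757 lower of 2759 tested. The median of that class was -0.12 with siControl replicate 3 left out.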

How the data were processed

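Poly(A) RNA was measured in 6 libraries of Kelly cells. The deposited values are raw read counts per gene, made by the authors with featureCounts 1.5.3 over whole gene spans of GENCODE release 33, per the file headers, with reads over several genes counted for each and no strand option. The headers also show alignment files from a folder named picard and library names that contain the word input, and what was done to the reads there is not given in the sources used here. The call sets a paired-end distance check without fragment counting, so the values are taken as reads. The submitters' processing notes name HISAT2 2.1.0, Trimmomatic 0.36 and GRCh38.

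Genes were filtered with filterByExpr, scaled by TMM and compared by edgeR 4.0.16 in R 4.3.3 (glmQLFit with the robust option and glmQLFTest on 6 libraries, no covariate, Benjamini-Hochberg over 15311 genes). The SE was derived from the log2 fold change and F. The fit was tested on simulated data. Libraries of a group differed by more than sampling noise (chi-square per degree of freedom 3.05 to 16.1). Transcript structure was taken from GENCODE release 44, whose spans overlapped those of all 18999 genes with the same symbol.

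By rule, the text names METTL3, the 8 longest tested members, the 10 largest called changes in each direction (mean log2 CPM of 2 or more, groups apart) and, per list, the 3 lowest FDR values. Relatives of these and other examples were named after their values were seen. The members and lists were chosen with earlier results of these data known. Alternatives were RLE, upper quartile and total count scaling, other filters, DESeq2 1.42.0, limma-voom (limma 3.58.1), no robust option, a replicate block, each library left out, an offset for span, genes without overlaps and other length thresholds. An offset for span with the block, and a minimum level per length, were added after the data had been seen. Some items are not reported here.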

Additional observations from a re-analysis of the deposited data

How the results depend on the processing

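METTL3 and the counts of higher and lower very long genes kept their direction, and the counts stayed within 1.5 times, under the other scalings, filters, DESeq2, limma-voom, no robust option, the offset for span and genes without overlaps. Leaving out each library, the higher members went from 47 to 87, the lower from 34 to 59, their median log2 fold change from -0.025 to 0.090 (the latter without siControl replicate 3), METTL3 from -0.74 to -0.69, and the called factors of long-gene transcription from 10 (without siMETTL3 replicate 1) to 17. Calls over all tested genes ranged from 4210 of 15480 (without siMETTL3 replicate 1) to 6394 of 15476 (without siControl replicate 1) in these fits. Of the 60 higher members 46 were called in every such fit, and of the 49 lower members 34. With a length threshold of 750 kb, 20 members were higher and 27 lower, and at 1000 kb 9 and 16, with a median of -0.12; fewer genes enter by construction. DLG2, past no threshold, turned sign with total count scaling (0.0055), the offset for span without and with the block (0.037 and 0.038) and without siControl replicate 3 (0.055, with -0.082 to 0.055 over all libraries left out), and the cause was not tested. Beside METTL3, 39 named genes gave 694 values, of which 685 kept both sign and call. In 4, all of DLG2, the sign turned and the gene stayed past no threshold. The 5 that lost their call were PTPRD without siMETTL3 replicate 2 or 3, SHANK2 with the offset without and with the block (FDR 0.0606 and 0.108), and RBFOX1 without siControl replicate 1 (FDR 0.0577). The main fit did not pair libraries with equal replicate numbers, and whether they belong together was not settled. Their deviations correlated at 0.040, 0.049 and 0.067, and those of libraries with unequal numbers at -0.064 to 0.026. The replicate block called 6166 of all tested genes, against 5786 in the main fit. With the replicate block 60 members were higher and 54 lower, the median was 0.011, METTL3 was at -0.71 and 18 factors were called. Depth limits the 55 members at or below the olfactory receptor level.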
